A study of Mus musculus with 3 samples.

Results

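The genes described here are 8 mouse genes of innate defence, chosen by symbol out of 44546 genes in the table. They comprise the beta-defensins Defb1 and Defb6, the whey acidic protein domain genes Wfdc2, Wfdc21 and Slpi, and the antimicrobial genes Lcn2, Pglyrp1 and Lyz2. All 8 were found. The choice was made with earlier results of these data known, since Wfdc21 and Defb6 had stood out by their level and by the authors' fold change, so the values that follow are descriptions and carry no test.

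Polyadenylated RNA was sequenced from integrin alpha6-positive, Sca1-negative cells sorted from back skin. The mice were wild type, 56 days old and in second telogen, a resting phase of hair growth. The group comprised 3 libraries, and no treatment or transgene was named in the labels. The labels' protocol names an antibody to integrin alpha6 and none to Sca1, and it speaks of duplicates while 3 samples are listed, so the spread between libraries may be partly technical. Depth was 29283936, 35264901 and 39198620 counts in replicates 1, 2 and 3. Itga6, which encodes integrin alpha6, had 112 ± 9.12 TPM, and Ly6a, which encodes Sca1, had 7.91 ± 4.31 TPM (SD, n = 3). TPM is the count of a gene divided by its length and scaled to a common total, so it can be set side by side between genes. All 10 hair follicle stem cell markers examined had a mean TPM of at least 1, the limit used here for a detected gene. So did all 8 upper follicle, 7 suprabasal and 5 basal keratinocyte markers. Detection alone therefore does not tell these cell types apart. Replicate 1 stood apart over the whole table: in 12.9% of detected genes it lay above or below both other libraries by a margin of over 1 in log2(TPM + 1), against 1.68% in replicate 2 and 2.88% in replicate 3.

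Epithelia carry a chemical barrier of small secreted proteins. Beta-defensins are cationic peptides that disrupt microbial membranes. Whey acidic protein domain proteins are small, disulfide-bonded and often inhibit serine proteases such as neutrophil elastase. Lipocalin-2 withholds iron from bacteria, and lysozyme and peptidoglycan recognition proteins act on the bacterial cell wall. In skin, many of these proteins are made by keratinocytes of the upper follicle and upper epidermis or brought in by neutrophils and macrophages.

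The stretches of 250 bases before a RefSeq transcription start of Defb6, Wfdc2 and Slpi are shown. These genes were chosen because Defb6 had the highest level of the 8 genes, while Wfdc2 and Slpi carried an H3K27me3 value and had little RNA. H3K27me3 is the histone mark of Polycomb repression, which often covers promoters rich in CpG. RefSeq sequences on GRCm38 were found for 6 of the 8 genes (Defb6, Wfdc2, Slpi, Lcn2, Pglyrp1 and Lyz2). Wfdc2 had 2 RefSeq entries, of which the first was used. The stretches of Wfdc2, Slpi, Lcn2 and Pglyrp1 lie inside the GENCODE M21 bounds of their genes, and that of Lyz2 overlaps them. Other start sites of these genes were not read. Capitals mark each CpG, and each sequence is on the strand of its gene (Defb6 chr8:19225228-19225477, plus; Wfdc2 chr2:164562465-164562714, plus; Slpi chr2:164356508-164356757, minus).
Defb6: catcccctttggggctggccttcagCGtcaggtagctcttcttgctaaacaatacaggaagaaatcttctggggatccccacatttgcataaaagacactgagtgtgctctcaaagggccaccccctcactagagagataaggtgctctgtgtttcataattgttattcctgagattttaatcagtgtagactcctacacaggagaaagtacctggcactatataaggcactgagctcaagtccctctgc
Wfdc2: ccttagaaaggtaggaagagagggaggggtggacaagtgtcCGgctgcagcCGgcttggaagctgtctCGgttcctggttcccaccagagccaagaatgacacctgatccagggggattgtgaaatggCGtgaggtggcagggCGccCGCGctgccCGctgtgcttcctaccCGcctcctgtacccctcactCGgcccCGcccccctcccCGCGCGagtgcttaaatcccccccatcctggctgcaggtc
Slpi: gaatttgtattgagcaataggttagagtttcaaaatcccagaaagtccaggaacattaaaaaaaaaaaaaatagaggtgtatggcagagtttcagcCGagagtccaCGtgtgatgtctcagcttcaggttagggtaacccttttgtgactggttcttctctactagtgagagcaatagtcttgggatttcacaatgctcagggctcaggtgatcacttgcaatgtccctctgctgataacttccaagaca
The Wfdc2 stretch held 14 CpG, the Slpi stretch 2 and the Defb6 stretch 1. Over 27025 RefSeq promoters of the same length the median was 6. Among genes matched to the table, promoters of 1998 genes with an H3K27me3 value above 0 had a median of 12 CpG, and those of genes with a value of 0 had a median of 9. At the start sites used, Wfdc2 therefore lay above the median of the genes with a value, and Slpi below it. Lcn2, Pglyrp1 and Lyz2, which had an H3K27me3 value of 0, held 3, 3 and 1 CpG. A TATA-like match (TATANA, on either strand) began 31 bases before the start site of Defb6. The other 5 stretches held no such match, and 23.4% of all promoters held at least 1. The letters TTGCNNAA, a C/EBP-like pattern searched on both strands, occurred in Defb6 at 2 places and in Slpi and Lcn2 at 1 place each, and 9.55% of all promoters held them. Pglyrp1 held a match to an NF-kB-like motif, which 0.337% of all promoters held on either strand, and none of the 6 held the AP-1-like letters TGANTCA. Such matches describe letters in these windows only.

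Transcripts of 3 of the 8 genes were detected, with Defb6 at 185 TPM, Wfdc21 at 92.3 TPM and Defb1 at 19.2 TPM on average. Over all genes the share detected was 30.7%. All 8 are protein-coding, and over all protein-coding genes the share was 54.9%. The remaining 5 genes, which include the main antimicrobial and antiprotease genes of phagocytes (Lyz2, Lcn2, Slpi, Pglyrp1), had means from 0 to 0.908 TPM. Defb6 and Wfdc21 overlapped across libraries and did not differ beyond their spread. Wfdc21 lay above Defb1, and Defb1 above Pglyrp1, with no overlap of libraries in either pair. Pglyrp1, Wfdc2, Lcn2, Slpi and Lyz2 each overlapped with the next in order or met it at 0. In all, 2 of 7 pairs of neighbours in the order lay apart.

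**Figure D1:**
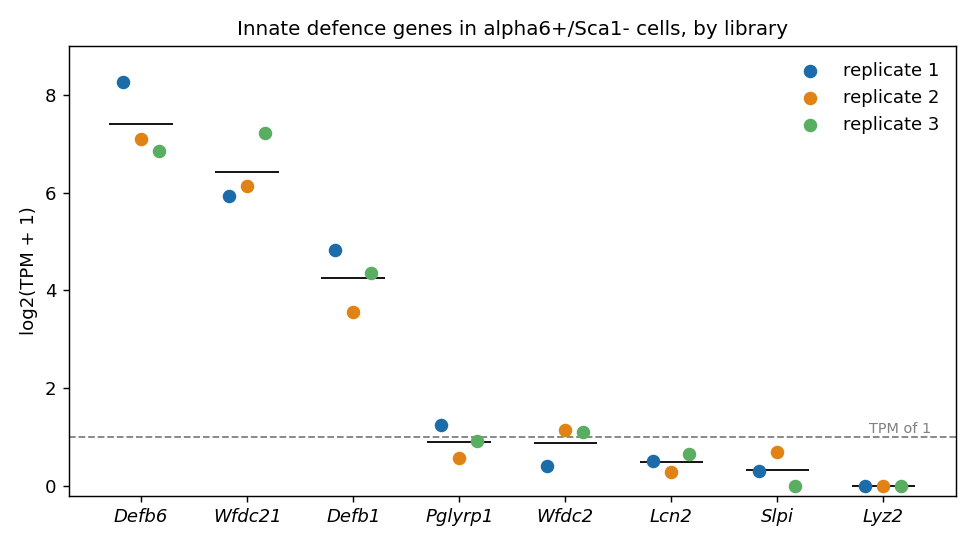
Level of each gene as log2(TPM + 1) in replicates 1, 2 and 3 (points), with the mean of the 3 values as a black line and a TPM of 1 as a dashed line. Defb6, Wfdc21 and Defb1 lie above the dashed line in every library, and Lyz2 lies at 0 in every library.

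Defb6 (ENSMUSG00000050756, GRCm38 chromosome 8, 19225478 to 19228209, plus strand) encodes a beta-defensin that is also used as a marker of the upper hair follicle. It had 304, 135 and 115 TPM in replicates 1, 2 and 3, from 1059, 599 and 571 counts. Replicate 1 was the high library and the other two lay close together. The mean of 185 ± 104 TPM (SD, n = 3) placed Defb6 at rank 619 of all genes, above 95.5% of the detected ones. The coefficient of variation was 56.3%, while counting error alone would give 3.81%. Replicate 1 differed from both others by more than 1 on the log2(TPM + 1) scale, as 10.6% of detected genes did in that direction. After division by TMM factors (a scaling of libraries to each other) the difference from replicate 2 no longer exceeded 1.

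Defb1 (ENSMUSG00000044748, chromosome 8, 21776599 to 21795185, plus strand) encodes the beta-defensin that epithelia make without a stimulus. It had 27.4, 10.7 and 19.5 TPM in replicates 1, 2 and 3, from 258, 128 and 262 counts. Replicate 1 was again the highest, and replicate 2 was the lowest. The mean was 19.2 ± 8.37 TPM (SD, n = 3), above 58.03% of detected genes, with a coefficient of variation of 43.5% against 7.19% from counting alone. Defb6 exceeded Defb1 by 11.1-, 12.6- and 5.88-fold in the 3 libraries, in TPM.

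Beta-defensin RNA was nearly all from this pair. Of 43 genes with a Defb symbol, 33 had 0 counts in all 3 libraries and 4 were detected. Defb6 held 87.9% ± 3.14 of the summed TPM of the family and Defb1 held 9.84% ± 3.92 (SD, n = 3). Defb14 and Defb8 were the other detected members. Defb14 had 3, 9 and 1 counts (1.36, 3.22 and 0.318 TPM), and Defb8 had 7, 8 and 0 counts (2.26, 2.04 and 0 TPM). Their means above 1 TPM thus rest on very few counts and short genes. Defb13 had a mean of 0.663 TPM. All 30 alpha-defensin genes, which are known from Paneth cells of the gut, had 0 counts in the 3 libraries. Of 274 windows of 50 bases in the Defb6 transcript and 823 in that of Defb1, 0 occurred in an annotated transcript of another gene, so reads of that length would not be shared within the family.

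Wfdc21 (ENSMUSG00000051748, chromosome 11, 83746940 to 83752642, plus strand) encodes a small secreted protein with a whey acidic protein domain. It had 60.1, 69.3 and 147 TPM in replicates 1, 2 and 3, from 281, 412 and 987 counts. Replicate 3 was the high library, unlike for both defensins. The mean of 92.3 ± 48.0 TPM (SD, n = 3) lay above 90.2% of detected genes, and the coefficient of variation of 52.01% exceeded the 4.83% given by counting. Replicate 3 differed from both others by more than 1 on the log2 scale, which 1.29% of detected genes did in that direction.

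Wfdc2 (ENSMUSG00000017723, chromosome 2, 164562413 to 164568510, plus strand) encodes HE4, a secreted protein of ducts and airways. It had 0.326, 1.22 and 1.14 TPM, from 4, 19 and 20 counts. The exact 95% Poisson interval, which covers counting error only, ran from 0.0887 to 0.833 TPM in replicate 1 and from 0.733 to 1.90 TPM in replicate 2. The mean of 0.893 ± 0.493 TPM (SD, n = 3) was just under the limit for detection.

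Slpi (ENSMUSG00000017002, chromosome 2, 164354070 to 164389095, minus strand) encodes the secretory leukocyte protease inhibitor, which blocks neutrophil elastase and cathepsin G. It had 3, 10 and 0 counts, or 0.236, 0.619 and 0 TPM. The count of 0 in replicate 3 allows up to 0.165 TPM, the value of 3 counts there. The microRNA gene Mir7678 lies inside Slpi on the same strand and had 1, 0 and 0 counts.

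Among 20 genes with a whey acidic protein domain name, 4 were detected and 12 had 0 counts in every library. Wfdc3, which is not among the 8 genes, was the highest and steadiest, with 88.9, 91.6 and 105 TPM. Wfdc21 equalled 0.676, 0.757 and 1.40 times Wfdc3 in replicates 1, 2 and 3, so the order of the pair differed between libraries. Wfdc21 held 44.8% ± 9.02 of the TPM of the family and Wfdc3 50.1% ± 9.49 (SD, n = 3). Wfdc5 had 4.39, 6.67 and 11.4 TPM and Wfdc18, the neighbour of Wfdc21, had 1.29, 1.02 and 1.86 TPM. All 4 detected genes of the family were highest in replicate 3, the library in which 20.4% of all detected genes were highest.

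Lcn2 (ENSMUSG00000026822, chromosome 2, 32384633 to 32388252, minus strand) encodes lipocalin-2, which binds bacterial siderophores. It had 0.424, 0.223 and 0.569 TPM, from 12, 8 and 23 counts. The other 9 lipocalin genes were not detected either, and 8 of the 10 had 0 counts in every library.

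Pglyrp1 (ENSMUSG00000030413, chromosome 7, 18871331 to 18890459, plus strand) encodes a peptidoglycan recognition protein stored in neutrophil granules. It had 1.36, 0.477 and 0.882 TPM, from 27, 12 and 25 counts, and only replicate 1 exceeded 1 TPM. Of its 1836 transcript windows of 50 bases, 2.67% also occur in transcripts of other genes. The paralogs Pglyrp4 and Pglyrp3, which are known from keratinocytes, were higher on average. Pglyrp4 had 4.35, 3.21 and 6.49 TPM, above Pglyrp1 in every library. Pglyrp3 had 1.68, 0.528 and 3.16 TPM and overlapped with it.

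Lyz2 (ENSMUSG00000069516, chromosome 10, 117277331 to 117282321, minus strand) encodes the lysozyme of macrophages and neutrophils. No read was counted in any library (0 counts). At the limit of 3 counts, levels up to 0.220, 0.173 and 0.154 TPM in replicates 1, 2 and 3 would go unseen. Its close copy Lyz1 also had 0 counts. Of 1267 windows of 50 bases in the Lyz2 transcript, 15.4% occur in Lyz1, so most of the transcript could be told from that copy at this length. The read length and the treatment of reads with several matches were not given in the sources used here. All 6 lysozyme genes had 0 counts.

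Markers of phagocytes were examined beside these low values. Of 10 neutrophil markers, 0 were detected, 4 (Elane, Ltf, Ly6g and Ngp) had 0 counts in every library, and their summed level was 1.70, 0.252 and 0.917 TPM. Of 10 monocyte and macrophage markers, Cd68 alone was detected, with 26.3, 17.4 and 20.1 TPM. The whole list summed to 27.001, 18.02 and 21.1 TPM, and C1qb, Fcgr1 and Mrc1 had 0 counts. Cd68 encodes a lysosomal protein that is not restricted to macrophages. Langerhans and dendritic cell markers summed to 15.2, 26.0 and 15.9 TPM, mostly from Cd74, and T cell markers to at most 0.893 TPM. In such bulk libraries fewer cells of a type and less RNA per cell cannot be told apart.

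The high libraries of Defb6 and Wfdc21 were set beside marker lists of follicle and epidermis. The 7 suprabasal markers, which include Krt1, Krt10 and Lor, summed to 3316, 4477 and 7185 TPM in replicates 1, 2 and 3, with 6 of the 7 highest in replicate 3, as Wfdc21 was. The 8 upper follicle markers summed to 4482, 4169 and 3151 TPM, with 4 of 8 highest in replicate 1, as Defb6 was. Krt17 made up most of that sum, and without it the sums were 469, 450 and 388 TPM. Defb6 itself differed 2.65-fold from the lowest to the highest library. The range of a single gene and that of a sum over several genes are unlike measures, so they were not compared. Sebaceous gland markers summed to 277, 263 and 337 TPM. The part of these markers in the levels of Defb6 and Wfdc21 was not tested. Over all detected genes, 59.6% were highest in replicate 1.

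**Figure D2:**
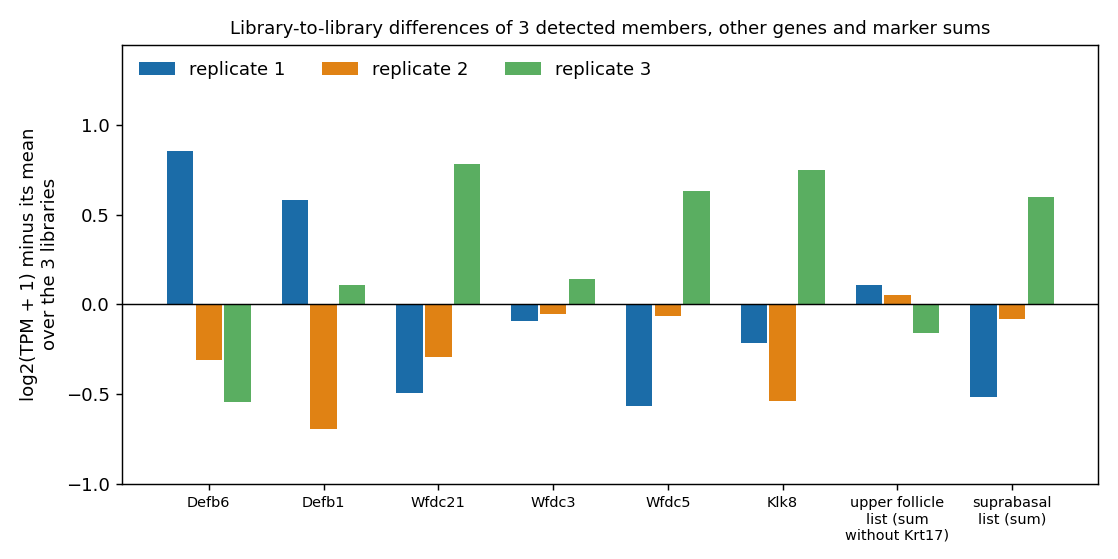
Difference of log2(TPM + 1) from its mean over the 3 libraries, as bars for replicates 1, 2 and 3, for Defb6, Defb1, Wfdc21, the genes Wfdc3, Wfdc5 and Klk8, and the summed TPM of upper follicle markers (without Krt17, a choice made after its level was seen) and of suprabasal markers. Defb6 and Defb1 are highest in replicate 1, and Wfdc21, Wfdc3, Wfdc5, Klk8 and the suprabasal sum in replicate 3.

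The 3 detected genes varied more between libraries than most. The SD of log2(TPM + 1) was 0.75 for Defb6, 0.69 for Wfdc21 and 0.65 for Defb1, against a median of 0.22 over the 8158 genes whose mean reached 10 TPM. These values lay above 92.9%, 91.7% and 90.6% of those genes. The genes whose centred log2 values over the 3 libraries were nearest to those of Defb6, by Euclidean distance, were Esf1, Ehbp1, Gm13584, Trim59 and Cep63, at distances from 0.0093 to 0.025. As many as 201 genes lay within 0.2 of Defb6, which shows how little 3 libraries single out a pattern. For Wfdc21 the nearest were Dkkl1, Flg2, Rpl35a-ps2, Dsc1 and Snord49b, at 0.064 to 0.13, and 15 genes lay within 0.2. Of the genes named for Wfdc21, Flg2 and Dsc1 are known from the upper layers of the epidermis, and any link to Wfdc21 was not tested. Rpl35a-ps2 is a pseudogene of a ribosomal protein gene and Snord49b a small RNA gene, whose counts are uncertain.

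The H3K27me3 value per gene, as deposited by the authors with no unit or source cells in the sources used here, was above 0 for Wfdc21 (12862), Slpi (8742) and Wfdc2 (4879). It was 0 for Defb1, Defb6, Lcn2, Pglyrp1 and Lyz2. A value above 0 was held by 3 of the 8 genes, beside 8.06% of all genes and 11.2% of protein-coding genes. All 3 are whey acidic protein domain genes, a family in which 8 of 20 genes had a value above 0 and none of 43 beta-defensin genes did. Wfdc21 was the only gene of the family with both a value above 0 and detected RNA. Of 631 protein-coding genes with a value at least as large as that of Wfdc21, 84 (13.3%) were detected and 4 reached the mean TPM of Wfdc21, which were Tsc22d3, Hsd17b10, H2-Q6 and Wfdc21 itself. No other gene in the table had the same value as Wfdc21 or Slpi, and the value of Wfdc2 was held by 2 genes.

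**Figure D3:**
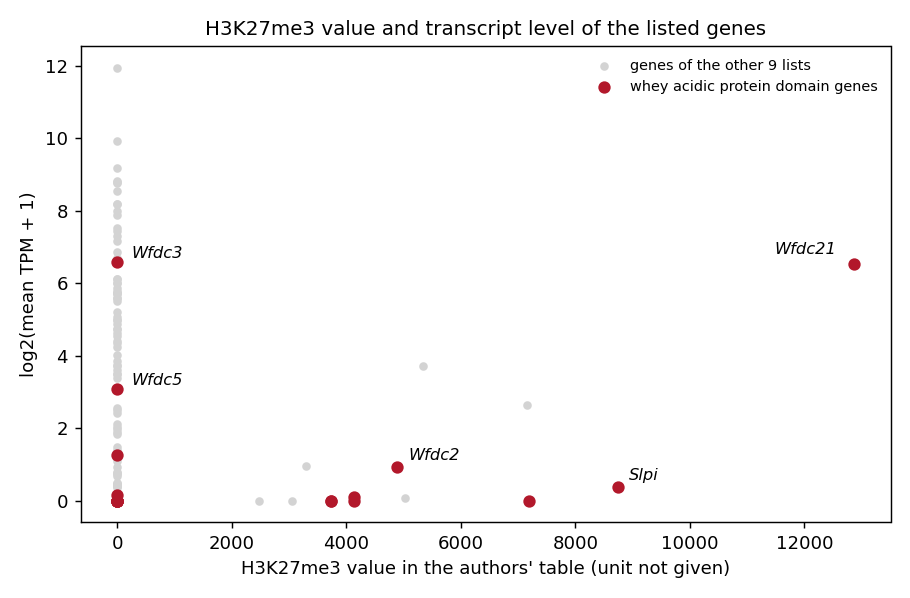
H3K27me3 value in the authors' table (horizontal axis, unit not given) against log2(mean TPM + 1) for whey acidic protein domain genes (red) and the genes of the other 9 lists (grey). Wfdc21 stands at the upper right with a value of 12862 and 92.3 TPM, while Slpi and Wfdc2 lie near 0 on the vertical axis.

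The neighbours of each gene on its chromosome were read next, as the 5 protein-coding genes on either side in GENCODE M21. Over the 8 genes these made 78 distinct neighbours, of which 32 (41.0%) were detected, beside 54.9% of all protein-coding genes. Both detected defensins sat among genes with little or no RNA. Of the 10 neighbours of Defb1, all but Defb2 had 0 counts and none was detected. Of the 10 neighbours of Defb6, 6 had 0 counts, and Defb14 and Defb8 were the only detected ones. Wfdc21 lay between mainly chemokine and Wfdc genes with little RNA on one side and the detected genes Heatr6, Ddx52, Synrg and Dusp14 on the other. Slpi and Wfdc2 lie in the same region of chromosome 2. Of their neighbours, Sdc4, Sys1, Dbndd2 and Pigt were detected, and Matn4, Rbpjl, Spint3, Wfdc8 and Wfdc6b had an H3K27me3 value above 0 without detection. All 10 neighbours of Lcn2 were detected (Swi5, Golga2, Dnm1, Ciz1, 1110008P14Rik, Ptges2, Slc25a25, Naif1, Fam102a and Dpm2), at mean levels from 2.78 to 62.7 TPM. Lyz2 had 7 detected neighbours (Cct2, Frs2, Yeats4, Cpsf6, Cpm, Mdm2 and Slc35e3), and Pglyrp1 had 4 (Mill2, Ccdc61, Mypop and Irf2bp1).

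**Figure D4:**
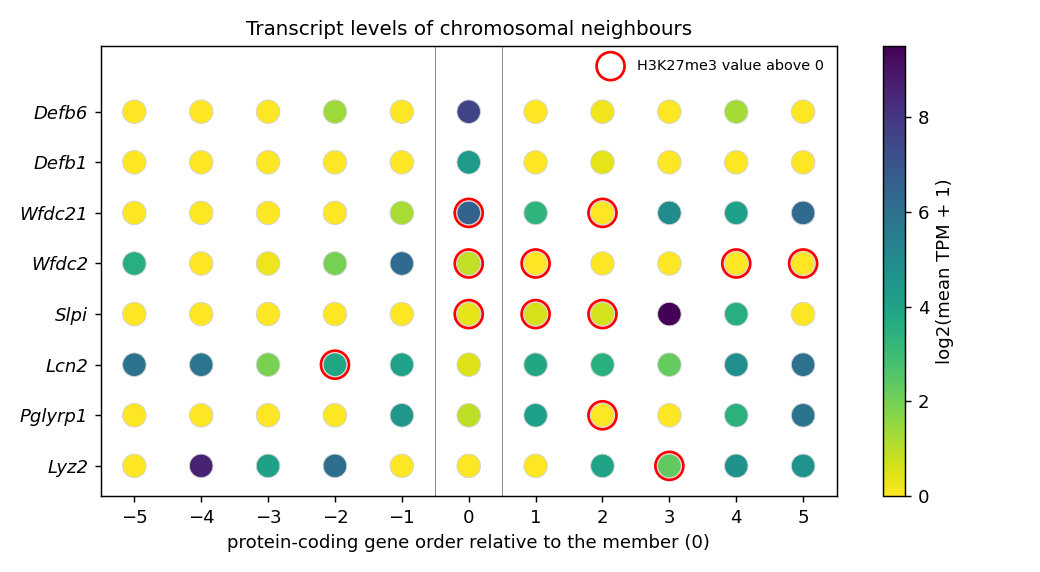
Mean level, as the colour of each point in log2(mean TPM + 1), of the 5 protein-coding genes before and after each of the 8 genes in chromosome order, with red rings for an H3K27me3 value above 0. Defb6 and Defb1 are dark points among mostly yellow neighbours, and Lcn2 is a yellow point among green and blue ones.

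The authors' deposited table also gives a log2 fold change with an adjusted p-value. The file does not name the comparison. From the names of 6 columns that match no sample of the series and were not used, it was taken to be against bulge libraries, the bulge being the niche of the follicle stem cells. All 2552 genes with 0 counts in the 3 libraries and a fold change had a negative one, so positive values mean higher in the cells studied here. Since the genes were chosen with these values known, they are given as a description. In the authors' deposited table Wfdc21 had a log2 fold change of 7.42 (adjusted p = 2.38e-12), the value at rank 4 of 20274. Defb6 had 5.25 there (adjusted p = 6.87e-17), at rank 48, and Defb1 had 1.40 (adjusted p = 0.011). The authors' deposited table gave Wfdc2 a value of 2.29 (adjusted p = 0.147), Lcn2 0.24 (0.873), Slpi -0.21 (0.908) and Pglyrp1 -0.81 (0.387), and no value for Lyz2. An adjusted p under 0.05 with a positive fold change was thus held by 3 of the 7 genes with an adjusted p. Over all genes with an adjusted p the share was 23.6%. A negative fold change at that limit was held by none of the 7, beside 32.0% of all genes with an adjusted p. The 3 genes were all detected, and over all detected genes with an adjusted p the shares were 35.1% higher and 25.6% lower. The score in the authors' deposited table equalled the fold change times −log10 of the adjusted p times the H3K27me3 value plus 1, to within 1%, for all 20274 scored genes. It put Wfdc21 at rank 3, Wfdc2 at 213, Defb6 at 715 and Slpi at 18896 of 20274. Wfdc2 thus ranked above Defb6 with an adjusted p above 0.05 and 43 counts over the 3 libraries.

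The wider lists of related genes showed where the measured antiprotease RNA lay. Of 25 other protease inhibitor genes, 20 were detected, beside 54.9% of all protein-coding genes. Cst3, which encodes cystatin C, had 967 ± 62.2 TPM, Timp2, an inhibitor of matrix metalloproteases, had 579 ± 122 TPM, and Serpinb5 (maspin) had 447 ± 60.7 TPM (SD, n = 3), each above Wfdc21 and Defb6 in mean. Of the 23 with an adjusted p in the authors' deposited table, 8 were higher and 3 lower at an adjusted p under 0.05, with values from -1.34 for Serpinb8 to 4.47 for Cst6, a cystatin of the upper follicle. The target proteases followed: 14 of 19 were detected, led by Ctsb (437 ± 77.5 TPM), Ctsd (290 ± 56.1 TPM) and Htra1 (252 ± 39.5 TPM). Of 15 with an adjusted p in the authors' deposited table, 10 were higher and 0 lower, from 1.06 for Ctsb to 3.64 for Klk8, a kallikrein of the upper epidermis. The median log2 fold change of the 15 was 1.54, against -0.36 over all genes with an adjusted p. Over all detected genes the share called higher was 35.1% and the share called lower 25.6%, which is the nearer background for lists that are mostly detected. Elane and Ctsg, the main targets of Slpi, had 0 counts. Prtn3, another protease of the list, was detected, with 2.62, 3.20 and 3.37 TPM in replicates 1, 2 and 3. The authors' deposited table gave Prtn3 a log2 fold change of 2.41 (adjusted p = 0.0113). Of the 14 detected proteases 12 were highest in replicate 3, as were the suprabasal markers. Among 4 peptidoglycan recognition genes, Pglyrp4 alone was higher (1.86, adjusted p = 0.00596 in the authors' deposited table).

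**Figure D5:**
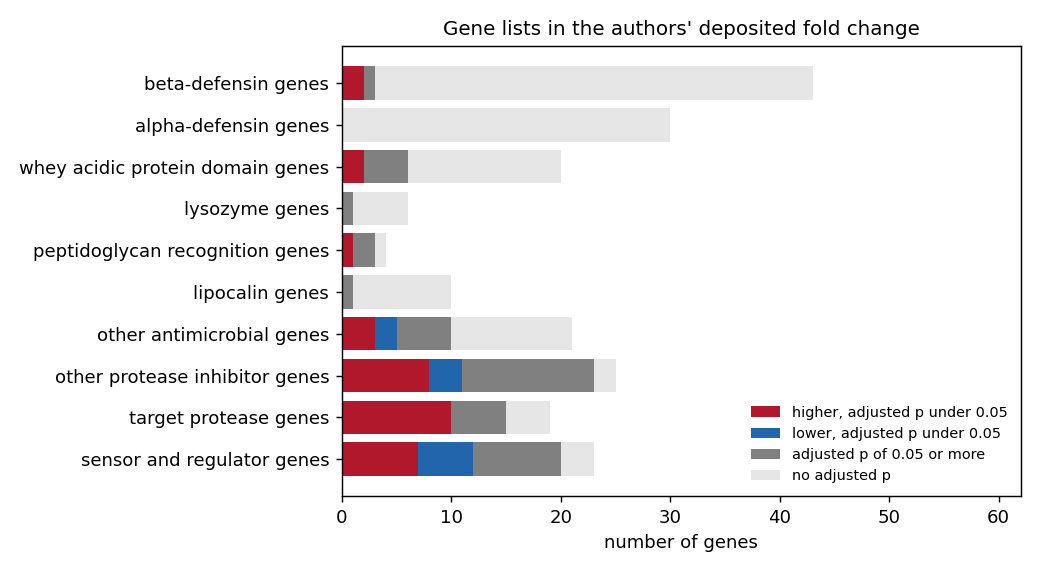
Number of genes per list (horizontal axis) by their call in the authors' deposited fold change: higher or lower at an adjusted p under 0.05, an adjusted p of 0.05 or more, or no adjusted p. The target proteases have 10 genes higher and 0 lower, and 40 of 43 beta-defensin genes have no adjusted p.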

How the data were processed

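The table held 44625 entries for 3 libraries of 1 group. Per the submitters' processing notes, FastQC, SAMtools, TopHat2, DESeq and DESeq2 were used with mm10 (GRCm38). Their roles, the counting tool and the strand setting were not given in the sources used here. Read counts per gene were deposited by the authors, as were TPM values. TPM recomputed from counts and gene length differed by at most 4.72e-06. The authors also deposited a log2 fold change, its adjusted p-value, an H3K27me3 number used here as a score without unit, and a product score. Another 6 columns of per-sample values match no sample and were not used.

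For symbols with several entries the highest mean TPM was kept. Library differences are in log2(TPM + 1), where low genes move less than in TPM. No test between groups was possible with 1 group. Means carry the SD over 3 libraries. TMM factors came from edgeR 4.0.16. Coordinates and neighbours came from GENCODE M21, which held 44392 of the identifiers, and promoters from RefSeq. The limit that a count of 0 allows was 3 counts. The deviation of a library was checked on simulated data.

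The 8 genes and the lists were chosen with earlier results of these data known. All 8 genes are named. Of each of 10 lists the text names the genes other than these with the highest mean TPM (up to 3) and the lowest and highest fold change among detected genes with an adjusted p under 0.05. For lists with little RNA some of these, at or near 0, are left to the counts. Genes like Defb6 and Wfdc21 are the 5 nearest in centred log2 values, out of those reaching a mean of 10 TPM. Neighbours are named when detected. Elane, Ctsg, Prtn3, Defb2 and the undetected neighbours with an H3K27me3 value were added after their values were seen. Of the 11 marker lists, basal keratinocyte markers summed to 23204 to 33209 TPM, fibroblast markers to 18.0 to 45.3 TPM and melanocyte markers to 13.1 to 15.5 TPM.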

Additional observations from a re-analysis of the deposited data

How the results depend on the processing

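With a limit of 0.1 TPM, 7 of the 8 genes counted as detected instead of 3. Leaving out each replicate in turn gave 3 to 4 detected genes, a check chosen after seeing the data. The number of pairs of neighbours in the order that lay apart was 2, and 3 to 4 when each replicate was left out, with 4 without replicate 3. The number of genes apart in replicate 1 was 1 (Defb6). It became 0 after division by TMM factors, and 2 with a pseudocount of 0.1 or a limit of 0.5 on the log2 scale, when Wfdc2 joined as lower there. With 10 instead of 5 chromosomal neighbours on either side, 55 of 160 positions were detected instead of 33 of 80. Leaving out each replicate moved the mean of Defb6 between 125 and 220 TPM, that of Wfdc21 between 64.7 and 108 TPM and that of Defb1 between 15.1 and 23.5 TPM. The means of Pglyrp1, Wfdc2, Lcn2 and Slpi then ranged from 0.680 to 1.12, 0.731 to 1.18, 0.324 to 0.496 and 0.118 to 0.427 TPM. The other alternatives kept counts within 1.5 times and means within 1 SD. No paired analysis was possible because the samples form 1 group. Depth limits Wfdc2, Slpi, Lcn2 and Pglyrp1, which rest on 13 to 64 counts over the 3 libraries.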

Other observations

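Of 23 genes that sense microbes or switch on defence genes, 19 were detected, beside 54.9% of all protein-coding genes. Vdr, the vitamin D receptor, had 291 ± 19.9 TPM, Il17rc, a receptor subunit for interleukin 17, had 115 ± 6.47 TPM, and Rela, an NF-kB subunit, had 96.4 ± 15.4 TPM (SD, n = 3). Of 20 with an adjusted p in the authors' deposited table, 7 were higher and 5 lower at an adjusted p under 0.05, from -1.86 for Tlr3, a sensor of double-stranded RNA, to 5.24 for Cebpb, a C/EBP factor. Over all detected genes with an adjusted p, 35.1% were higher and 25.6% lower, so the shares in this list were near the background.

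Among 21 other antimicrobial genes 5 were detected, beside 54.9% of all protein-coding genes. Cxcl14, a chemokine with antimicrobial activity, had 2852, 4615 and 4410 TPM in replicates 1, 2 and 3, above every other gene of the 10 lists. Rnase4 had 447 ± 41.6 TPM and Ang 51.8 ± 11.5 TPM (SD, n = 3). This pair of ribonuclease genes shares a locus, so the split of reads between them is uncertain. Adm, which encodes adrenomedullin, had 5.25 ± 1.47 TPM and an H3K27me3 value of 7156, and in the authors' deposited table a log2 fold change of 3.14 (adjusted p = 0.000218). Of 10 genes of the list with an adjusted p in the authors' deposited table, 3 were higher (Cxcl14, Adm and Rnase4) and 2 lower at an adjusted p under 0.05. The lower ones in the authors' deposited table were Camp (-3.24, adjusted p = 0.0197) and Ccl28 (-2.69, adjusted p = 2.77e-05), which had 0.122 and 0.347 TPM on average, under the limit for detection. Both were named after their values were seen. S100a7a had 26.5, 4.35 and 2.64 TPM in replicates 1, 2 and 3, with replicate 1 far above the others, and it was singled out after its values were seen.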
